A study of Mus musculus with 4 samples.

Results

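The transcription factors that steer CD4+ T cells into their helper lineages were followed in 2 kinds of splenic regulatory T cell, those that carry neuropilin-1 (Nrp1) on their surface and those that do not. The 9 genes are Tbx21, Gata3, Rora, Bcl6, Runx1, Runx3, Cbfb, Zbtb7b and Eomes. They were chosen by name, and every probe set that the platform annotation lists with one of them alone was taken, which gave 26 of the 45101 probe sets on the array. Rora had 9 of these probe sets, Runx1 6, Bcl6, Runx3, Zbtb7b and Eomes 2 each, and Tbx21, Gata3 and Cbfb 1 each.

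The Nrp1-positive group was 2 arrays of CD4+ Foxp3+ Nrp+ spleen cells, and the Nrp1-negative group was 2 arrays of CD4+ Foxp3+ Nrp- spleen cells. All cells came from untreated Balb/c Foxp3 GFP mice, in which green fluorescent protein reports Foxp3, the master regulator of regulatory T cells. Mice were 4 to 6 weeks old, except 4 to 8 weeks for Nrp1-negative replicate 1. That array is Nrp- by its title while its source name and cell type read Nrp+, and it was grouped by its title. Whether the 2 arrays of a group stand for separate mice or sorts is not stated. The p-values rest on how far the differences within the 2 replicate numbers disagree, pooled over genes or probe sets of similar level. That spread may therefore be technical, and 2 arrays a group limit the precision of every value.

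Helper T cells are sorted into lineages by a small set of DNA-binding factors, each of which turns on the cytokines and homing receptors of one fate and holds back the others. Tbx21 encodes T-bet, the factor of type 1 helper cells, and Gata3 that of type 2 helper cells, while RORα shares the interleukin-17 fate and Bcl6 directs follicular helper cells. Runx proteins with their partner Cbfb oppose Zbtb7b (ThPOK) in the choice between the CD8 and CD4 lineages. Regulatory T cells can express the same factors, and Gata3, Tbx21, Rora and Bcl6 each mark a subset of them.

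These factors also act on each other's genes, so the letters before their start sites were read for their own motifs. RefSeq windows (GRCm38.p6) were found for all 9 genes, 13 in all, and the 250 bases before each listed start were searched on both strands. The motifs were TGTGGT for RUNX proteins, AGGTCA for ROR proteins, AGATAA for GATA proteins, GGTGTGA for T-box proteins and TTCCNNGAA for BCL6, which is also the shape of STAT sites. A TGTGGT match lay in 2 of the 13 windows, and in 14.0% of all 32851 windows. TTCCNNGAA lay in 1 of the 13 and in 4.06% of all windows. The ROR, GATA and T-box motifs were in none of the 13, and in 14.0%, 9.99% and 3.33% of all windows. The 3 windows with a match are shown with the matched letters in capitals, beside that of Rora, the gene with the largest difference, where no letters matched. A match is a description of the letters and not a bound site. Each sequence is given 5′ to 3′ on the gene's strand.
Runx3, upstream start, chr4:135120395-135120644, + strand, RUNX motif at 134 and 126 bases before the start: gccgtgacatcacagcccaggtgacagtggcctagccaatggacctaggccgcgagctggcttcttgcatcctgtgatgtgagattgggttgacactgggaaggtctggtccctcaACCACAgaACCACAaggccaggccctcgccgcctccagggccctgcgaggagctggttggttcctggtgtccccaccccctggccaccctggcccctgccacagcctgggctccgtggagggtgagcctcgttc
Zbtb7b, downstream start, chr3:89387672-89387921, - strand, RUNX motif at 89 bases before the start: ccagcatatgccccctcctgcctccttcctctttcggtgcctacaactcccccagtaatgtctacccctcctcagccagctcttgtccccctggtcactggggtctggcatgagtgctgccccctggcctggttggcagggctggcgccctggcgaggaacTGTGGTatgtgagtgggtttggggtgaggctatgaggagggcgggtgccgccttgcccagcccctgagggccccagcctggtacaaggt
Bcl6, downstream start, chr16:23981284-23981533, - strand, BCL6 motif at 168 and 88 bases before the start: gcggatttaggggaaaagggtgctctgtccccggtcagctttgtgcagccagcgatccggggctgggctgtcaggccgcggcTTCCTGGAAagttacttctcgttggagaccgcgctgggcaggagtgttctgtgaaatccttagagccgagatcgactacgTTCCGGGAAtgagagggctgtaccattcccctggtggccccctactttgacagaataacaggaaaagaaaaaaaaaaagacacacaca
Rora, chr9:68653536-68653785, + strand: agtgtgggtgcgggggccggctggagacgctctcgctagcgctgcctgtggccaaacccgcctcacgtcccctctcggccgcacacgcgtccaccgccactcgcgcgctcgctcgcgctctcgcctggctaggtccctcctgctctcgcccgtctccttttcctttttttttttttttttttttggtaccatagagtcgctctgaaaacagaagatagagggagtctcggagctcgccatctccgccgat
The pair of ACCACA matches in Runx3 is the reverse complement of TGTGGT, and 1.27% of all windows hold 2 or more such matches. The Rora window lies within the annotated span of the gene, chr9:68653404-69388246.

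The arrays fell apart by replicate number rather than by group. Deposited intensities had been scaled to a trimmed mean of 500.003 on both arrays of replicate 1 and of 150.001 on both of replicate 2, so all 4 were brought to a trimmed mean of 500, and groups were compared within each replicate number. Across the 10200 genes tested, arrays of the same number correlated at 0.980 and 0.984 and arrays of the same group at 0.941 and 0.956 (genes are not independent replicates). A myeloid marker list moved with the number, with summed intensities of 2675 and 11137 in Nrp1-positive and 1795 and 12396 in Nrp1-negative replicates 1 and 2, and its part in the results was not tested. All 6 myeloid markers and 3 of 4 for NK cells passed the filter on low values. Of other markers, 1 of 4 for B cells, 1 of 2 for CD8 T cells, 0 of 3 for plasmacytoid dendritic cells and 0 of 2 for erythroid cells passed it. Nrp1 itself, the sorted marker, had intensities of 9344 and 7745 in Nrp1-positive and 339 and 1223 in Nrp1-negative arrays, which puts each array on the side of its title. The 5 markers Il2ra, Ctla4, Ikzf2, Cd4 and Cd3e passed that filter, whereas the Foxp3 probe set did not, with 2.16 and 19.9 in Nrp1-positive and 4.45 and 36.4 in Nrp1-negative arrays.

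Of the 9 lineage factors, Rora was the one whose 95% interval at gene level lay clear of 0, and its adjusted p lay just outside the threshold. In limma with the replicate number as a block, 0 of the 9 genes passed an adjusted p of 0.05, where 0.451% of all genes did, and Rora was the 1 with an unadjusted p below 0.05, where 8.61% of all genes had one. Rora was 0.65 higher in Nrp1-positive cells on the log2 scale (1.56-fold, SE 0.11, adjusted p = 0.0609). Of the 26 probe sets, 22 passed the filter, which kept those in the upper part of mean level (an intensity of about 67.8). The other 8 genes differed by −0.20 to 0.20, with adjusted p-values of 0.654 or more. The median over the 9 was 0.05, and over all genes tested 0.0038. A gene is represented here by its probe set of highest mean level, values are log2(intensity + 18.3), and a difference is Nrp1-positive minus Nrp1-negative, so that of a dim gene is understated.

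**Figure D1:**
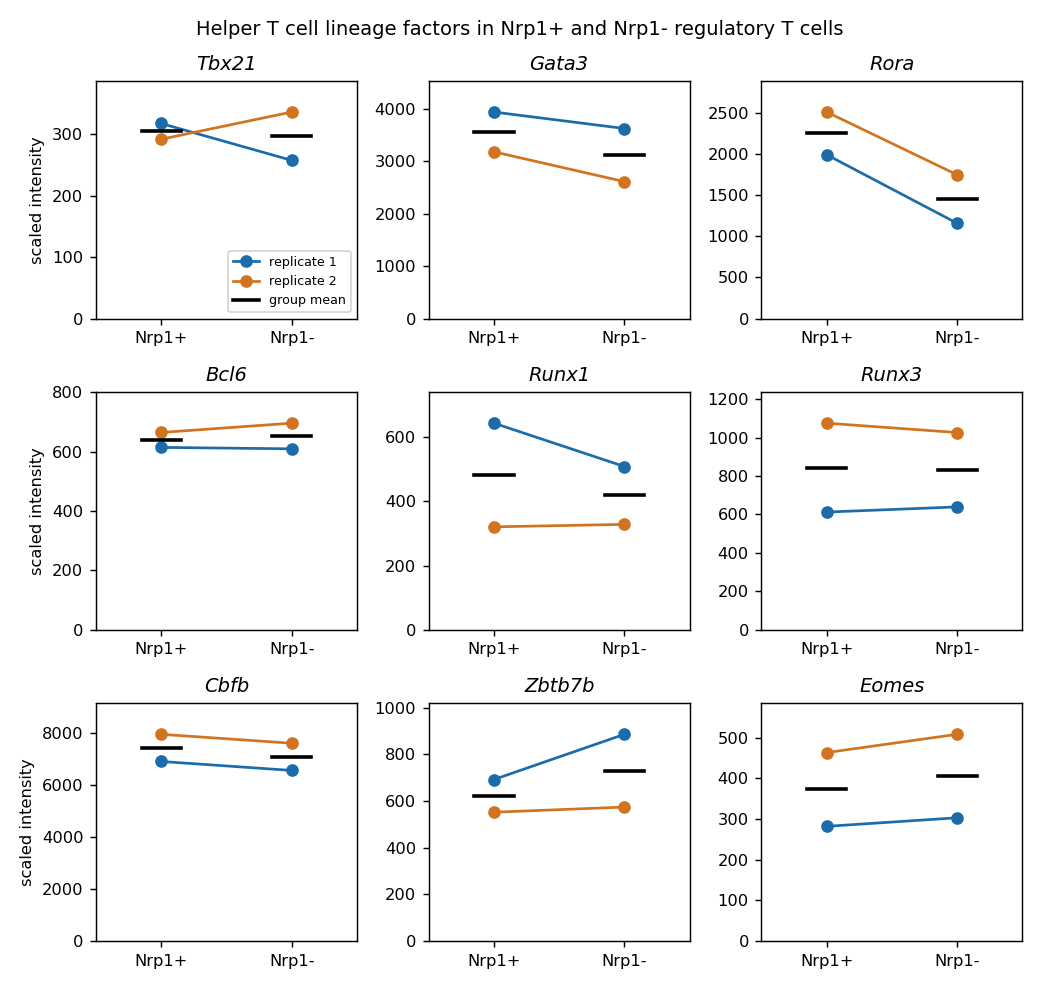
Scaled intensity (linear axis from 0, one scale per panel) of each lineage factor gene at its representative probe set, with Nrp1-positive arrays left and Nrp1-negative arrays right in each panel. Lines join the arrays of one replicate number and black bars are group means of 2 arrays; Rora lines both slope the same way and its groups do not overlap, while for Runx3 and Eomes the lines lie further apart than their ends differ.

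Rora encodes RORα, a nuclear receptor that shares the RORγt role in interleukin-17 production and also occurs in regulatory T cells of skin and in type 2 innate lymphoid cells of mouse. Its representative probe set, 1424034_at, had intensities of 1988 and 2506 in Nrp1-positive replicates 1 and 2, against 1156 and 1744 in Nrp1-negative replicates 1 and 2. Both Nrp1-positive arrays lay above both Nrp1-negative arrays, as in 21.1% of all genes for either direction. Nrp1-positive arrays averaged 2247 ± 366, against 1450 ± 416 for Nrp1-negative arrays (SD, n = 2 each). In bulk samples such as these, fewer cells of a type and less RNA per cell cannot be told apart. The difference was 0.77 in replicate 1 and 0.52 in replicate 2, and the 95% interval of the mean was 0.38 to 0.91. At least 0.5 higher in both replicates was reached by 1.71% of all genes, and Rora ranked 235 of 10200 by difference and 59 by p.

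The 6 Rora probe sets that passed the filter were each higher in the Nrp1-positive array of both replicates. Over all probe sets that passed, 28.0% were higher in both (after quantile normalization 1424034_at passed, where 0.622% of probe sets did), and the probe sets of 1 gene read the same RNA and are not independent. Their mean differences ran from 0.59 to 0.91, with 0.77 to 1.19 in replicate 1 and 0.24 to 0.62 in replicate 2. Every one of the 6 was thus larger in replicate 1, the pair that holds the array with conflicting labels. That pair also has the array from mice of 4 to 8 weeks and the larger Nrp1 difference (4.71, against 2.64 in replicate 2). The cause was not tested. Probe set 1420583_a_at had 629 and 1132 in Nrp1-positive and 316 and 785 in Nrp1-negative arrays, and its groups overlapped. Probe set 1436326_at had 819 and 1003 in Nrp1-positive and 422 and 788 in Nrp1-negative arrays, and 1458129_at had 258 and 170 in Nrp1-positive and 103 and 104 in Nrp1-negative arrays. The groups did not overlap at either of these, nor at 1436325_at. Tested one by one across all 22519 probe sets, none of the 6 passed in limma (adjusted p of 0.112 to 0.482), where 0.204% of probe sets did. Their unadjusted p ran from 0.000457 to 0.0128, below 0.05 in all 6, as in 6.86% of all probe sets. The 3 Rora probe sets below the filter (1424035_at, 1441085_at and 1458145_at) had intensities between 2.40 and 56.2, and their replicates differed by −1.50 to 0.98.

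**Figure D2:**
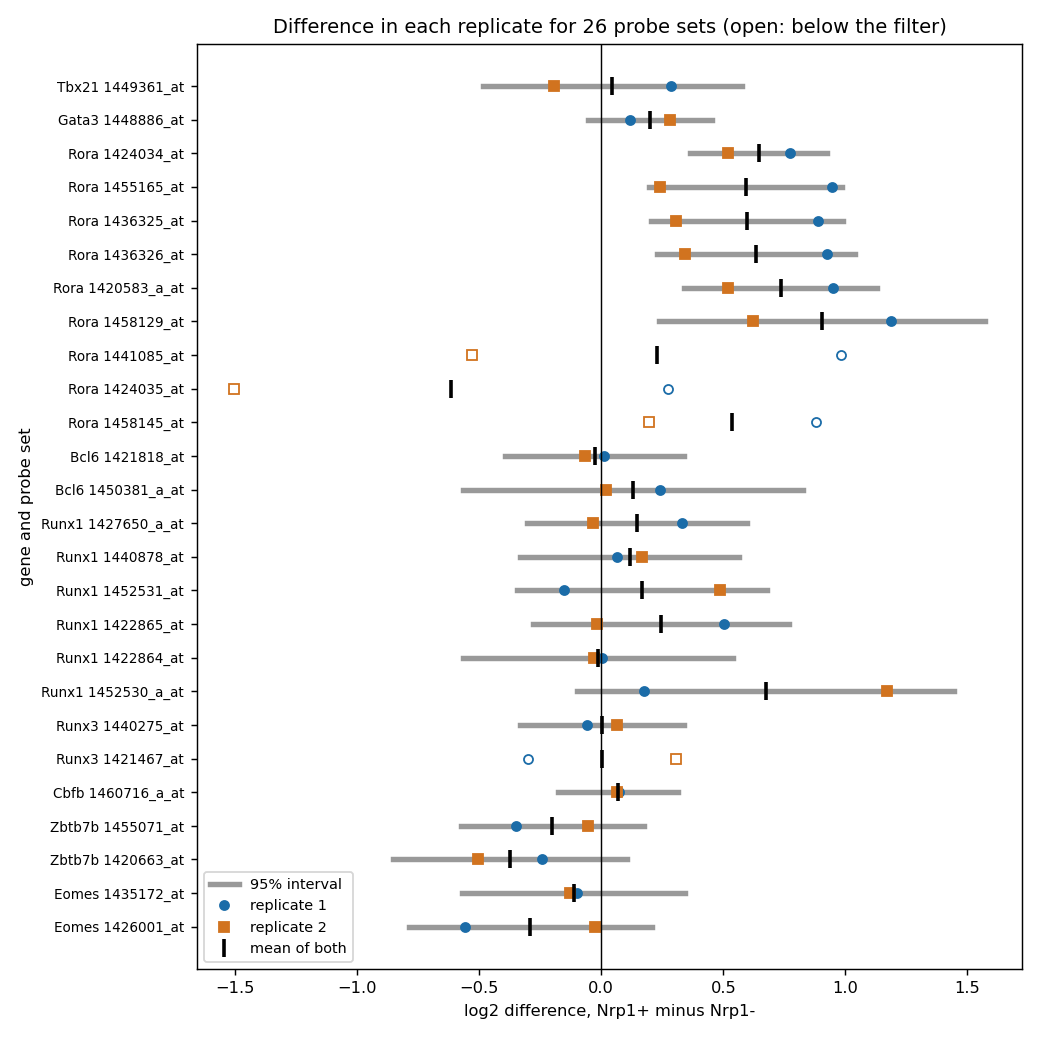
Log2 difference, Nrp1-positive minus Nrp1-negative, for all 26 probe sets, with circles for replicate 1, squares for replicate 2, a black tick for their mean and a grey bar for the 95% interval from limma; open symbols are the 4 probe sets below the filter, which have no interval. The intervals of the 6 Rora probe sets lie above 0, and those of the other 16 tested probe sets include 0.

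The call on Rora turned on the processing. The difference itself was 0.63 to 0.68 under 8 of the 9 tested alternatives, and Rora passed under 4 of them. Its adjusted p was 0.00642 after quantile normalization, where 1.66% of genes were called, and 0.0169 with the mean of its probe sets, where 1.8% were. With a smaller pseudocount it was 0.0401 (0.677% called) and with a larger one 0.0367 (0.745% called), while other filters left it at 0.0523 and 0.0525 (0.706% and 0.28% called). Without the mean-variance trend it was 0.459, and without the block 1.00, and in both of these limma fits no gene of the 10200 was called (873 and 147 had an unadjusted p below 0.05). When the array with conflicting labels was moved to the Nrp1-positive side, as its source name and cell type read, the Rora difference was 0.04, in a fit that mixes the replicate number with the group. In that fit the difference of Nrp1, the sorted marker, was 1.25, against 3.68 under the reported setting.

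**Figure D3:**
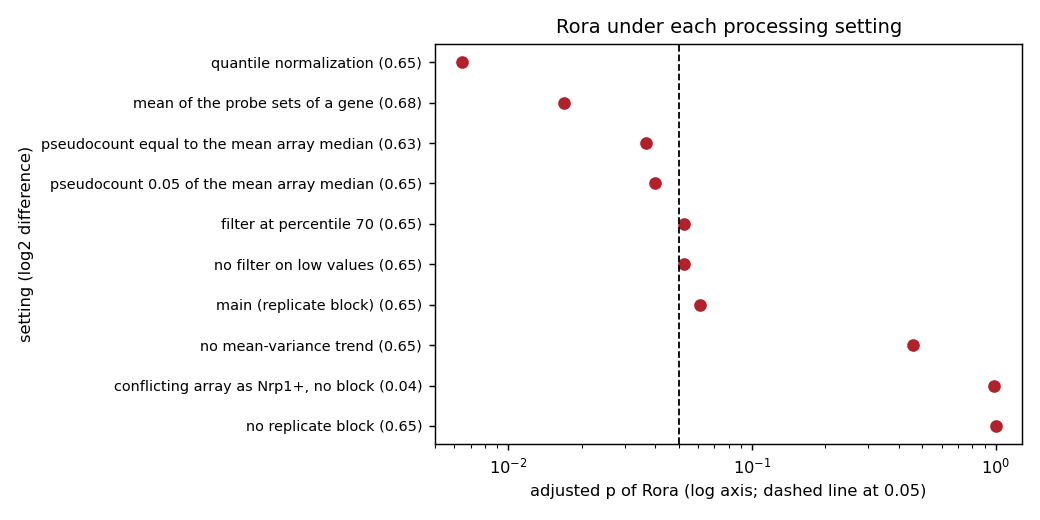
Adjusted p of Rora (log axis) under the reported setting and 9 alternatives, with the log2 difference of each in brackets and the threshold of 0.05 as a dashed line. Quantile normalization, the mean of probe sets and both other pseudocounts fall left of the line, and the remaining settings fall right of it.

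Genes whose 4 values ran most like those of Rora were Mirt1, Sh3rf1, Mocos, Dennd4a and 4921525O09Rik. Likeness was the root mean square distance between log2 values centred on each gene's own mean over the 4 arrays. The 5 lay within 0.025 to 0.057 of Rora, where the median gene lay at 0.45. None of the 5 passed in limma, with differences of 0.59 to 0.71 and adjusted p-values of 0.158 to 0.664. Markers of type 2 innate lymphoid cells, which also express Rora, had summed intensities of 2695 and 3727 in Nrp1-positive and 1295 and 2791 in Nrp1-negative replicates 1 and 2. In that list of 6 genes, 5 were annotated, Klrg1 and Il17rb passed the filter and Il5, Il13 and Arg1 did not. Klrg1, which effector regulatory T cells express too, carried most of the sum, and the part of other cells in the Rora difference was not tested.

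Gata3 encodes the factor of type 2 helper cells, which regulatory T cells also use to keep Foxp3 expressed under inflammation in mice. It had intensities of 3939 and 3181 in Nrp1-positive and 3625 and 2612 in Nrp1-negative replicates 1 and 2. The Nrp1-positive array was the brighter one in each replicate, but the groups overlapped, because replicate 1 exceeded replicate 2 in both. The difference was 0.12 and 0.28 in the replicates and 0.20 in the mean (95% interval −0.03 to 0.43, adjusted p = 0.654 in limma).

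The T-box factors T-bet and Eomes drive interferon-gamma and cytotoxic genes, and T-bet marks the regulatory T cells that restrain type 1 responses. Tbx21 had intensities of 317 and 292 in Nrp1-positive and 257 and 336 in Nrp1-negative arrays, so its difference took opposite signs, 0.28 in replicate 1 and −0.19 in replicate 2 (95% interval of the mean −0.44 to 0.53). Eomes probe set 1435172_at had 282 and 463 in Nrp1-positive and 303 and 508 in Nrp1-negative arrays, and the other Eomes probe set, 1426001_at, had 244 and 454 in Nrp1-positive and 368 and 462 in Nrp1-negative arrays. Both Eomes probe sets were lower in the Nrp1-positive array of each replicate, with mean differences of −0.11 and −0.29 and intervals that include 0. At 1426001_at nearly all of this lay in replicate 1 (−0.56, against −0.03 in replicate 2). For Eomes the step between replicate numbers, 0.70, was larger than that between groups. Markers of NK cells, which express Eomes, had summed intensities of 847 and 1027 in Nrp1-positive and 913 and 1910 in Nrp1-negative replicates 1 and 2. Gzma carried most of each sum, at 544 and 782 in Nrp1-positive and 553 and 1510 in Nrp1-negative arrays. Ncr1 had 74.3 and 77.0 in Nrp1-positive and 104 and 141 in Nrp1-negative arrays, and Klra8 lay below the filter. The part of NK cells in the Eomes values was not tested.

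Bcl6 encodes the repressor that directs follicular helper and follicular regulatory T cells. Probe set 1421818_at, which represents it, had 615 and 665 in Nrp1-positive and 610 and 696 in Nrp1-negative arrays. The 4 values lay close together and the groups overlapped, with a difference of −0.03 (95% interval −0.36 to 0.30, adjusted p = 0.979 in limma). The dimmer probe set 1450381_a_at had 95.7 and 135 in Nrp1-positive and 78.1 and 133 in Nrp1-negative arrays, a difference of 0.13.

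Runx proteins bind DNA with Cbfb as their shared partner, and Runx1 also binds Foxp3 in regulatory T cells. Cbfb had intensities of 6921 and 7969 in Nrp1-positive and 6575 and 7623 in Nrp1-negative replicates 1 and 2. Its replicates gave almost the same difference, 0.07 and 0.06, and its interval, −0.16 to 0.30, was the narrowest of the 9. Runx3, the factor of CD8 and type 1 fates, had 612 and 1075 in Nrp1-positive and 639 and 1026 in Nrp1-negative arrays at 1440275_at. Its mean difference was 0.0029 (95% interval −0.30 to 0.31, adjusted p = 0.997 in limma), against a step of 0.73 between replicate numbers. The second Runx3 probe set, 1421467_at, fell just below the filter, at percentile 49.6 of mean level, and the dimmest member probe set that passed was at percentile 56.0.

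Runx1 was read by 6 probe sets that disagreed with each other, so its direction is uncertain. Its representative, 1427650_a_at, had 644 and 321 in Nrp1-positive and 509 and 329 in Nrp1-negative arrays, a difference of 0.33 in replicate 1 and −0.03 in replicate 2 (95% interval of the mean −0.26 to 0.56). Probe set 1452530_a_at had 177 and 115 in Nrp1-positive and 155 and 40.7 in Nrp1-negative arrays. Its difference of 0.67 was the largest outside Rora and came mostly from replicate 2 (1.17, against 0.18 in replicate 1), with an unadjusted p of 0.0813 in limma. The value of 40.7 lies under the intensity of about 67.8 at which the filter lies. With the larger pseudocount the difference at 1452530_a_at was 0.43. Over the 6 probe sets the mean difference ran from −0.01 to 0.67, 2 were higher in the Nrp1-positive array of both replicates, and the groups overlapped at all 6. The probe sets also parted between replicate numbers, since 1422864_at was higher in replicate 2 of both groups (0.41 in Nrp1-positive and 0.44 in Nrp1-negative arrays) while 1452531_at was lower there (−0.80 in Nrp1-positive and −1.44 in Nrp1-negative arrays).

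Zbtb7b encodes ThPOK, the factor that holds T cells to the CD4 lineage. Probe set 1455071_at had 692 and 552 in Nrp1-positive and 886 and 574 in Nrp1-negative arrays, and 1420663_at had 368 and 258 in Nrp1-positive and 439 and 374 in Nrp1-negative arrays. Both probe sets were lower in the Nrp1-positive array of each replicate, where 23.7% of all probe sets were. At 1420663_at the groups did not overlap, and the difference was −0.38 (95% interval −0.85 to 0.10, adjusted p = 0.826 in limma). At 1455071_at it was −0.20, and the groups overlapped.

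Across the lineage factors, 5 of the 22 probe sets that passed the filter had groups that did not overlap, 4 of Rora and 1 of Zbtb7b, against 20.1% of all probe sets. Signs of the replicates matched in 4 of the 8 genes other than Rora. Over all 10200 genes tested, 2845 were higher in both replicates and 2655 lower in both. Of the 9 genes, 3 were higher in the Nrp1-positive array of both replicates, where 27.9% of all genes were. At the representative probe sets the 95% intervals of these 8 all included 0 and lay between −0.55 and 0.56 on the log2 scale.

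**Figure D4:**
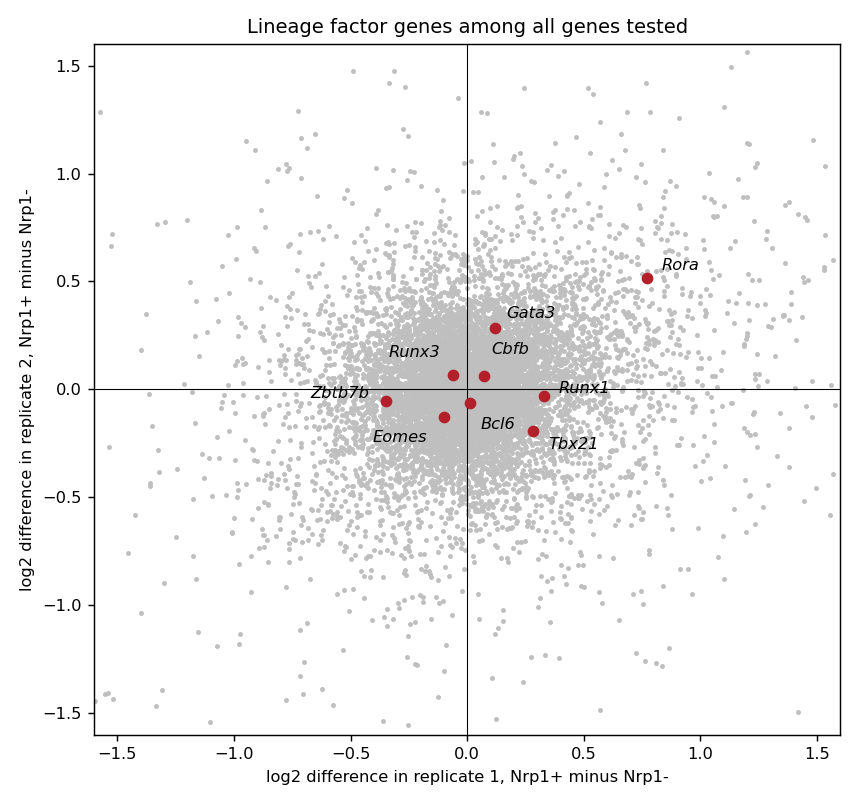
Log2 difference of each gene, Nrp1-positive minus Nrp1-negative, in replicate 1 (x axis) and replicate 2 (y axis), with all 10200 genes in grey and the 9 lineage factors in red; 73 genes lie beyond the axis limits of 1.6. Rora sits at 0.77 and 0.52 in the upper right, and the other 8 lie within 0.35 of 0 on both axes.

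Genes of the lineage programmes, and partners and corepressors of the factors, were read next, from 8 lists chosen with earlier results of these data known. The lists are not limited to genes that the factors control. In the type 1 programme, 13 of 17 genes were tested, and Il18r1, a chain of the interleukin-18 receptor, rose while 12 did not pass (0.284% of all genes were called higher and 0.167% lower). Il18r1 had 3676 and 4390 in Nrp1-positive and 751 and 2408 in Nrp1-negative arrays, a difference of 1.56 (SE 0.26, adjusted p = 0.0449 in limma), at 2.26 in replicate 1 and 0.86 in replicate 2. With the array of conflicting labels moved to the Nrp1-positive side it was −0.063, in a fit that mixes the replicate number with the group. In limma the call on Il18r1 was lost without the block (adjusted p = 1.00) and without the mean-variance trend (adjusted p = 0.471). Il18rap, the other chain of that receptor, differed by 0.81 and Ifngr2 by 0.50, while Fasl differed by −0.48 and the chemokine gene Ccl5 by −0.38. Ifng and Cxcr3, the classic targets of T-bet, differed by 0.12 and −0.09. Replicates 1 and 2 took opposite signs for Ccl5 (0.03 and −0.80), Ifng (0.58 and −0.35) and Cxcr3 (0.09 and −0.26). Those of Il18rap, Ifngr2 and Fasl had matching signs. The list median was −0.09.

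In the other 7 lists limma called 0 genes. Over these lists 9 of 52 tested entries had an unadjusted p below 0.05, where 8.61% of all genes did, and since the lists were chosen with earlier results known this share is no independent evidence. The type 2 programme had 6 of 14 genes tested and a median of 0.03. Maf, which drives interleukin-4 and interleukin-10, was its 1 gene with an unadjusted p below 0.05, at 4877 and 7428 in Nrp1-positive and 7113 and 10808 in Nrp1-negative arrays. Its difference was −0.54 in both replicates (adjusted p = 0.0713 in limma), and Ccr4, Gfi1 and Irf4 differed by −0.27, 0.23 and 0.16. For Irf4 the replicates took opposite signs, 0.42 in replicate 1 and −0.09 in replicate 2. Il4, Il5 and Il13 were below the filter.

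The interleukin-17 and ROR list had 6 of 12 genes tested, a median of 0.01 and 2 genes with an unadjusted p below 0.05. These were Il6st, the shared signalling chain of the interleukin-6 receptor, at −0.37 in the mean, and Batf, an AP-1 factor, at 0.27. Ahr differed by −0.30 in the mean (0.03 in replicate 1 and −0.63 in replicate 2) and Stat3 by 0.16. The follicular list had 9 of 11 genes tested, a median of −0.03 and 2 such genes, the chemokine receptor Cxcr5 and the costimulator Icos. Cxcr5 had 551 and 710 in Nrp1-positive and 885 and 1142 in Nrp1-negative arrays, a difference of −0.67 in both replicates (adjusted p = 0.0941 in limma), and Icos differed by −0.29. Pdcd1 differed by 0.30 (0.54 in replicate 1 and 0.06 in replicate 2). Prdm1, whose product Blimp-1 opposes Bcl6, differed by −0.27 (−0.02 in replicate 1 and −0.53 in replicate 2).

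In the list of the CD4 and CD8 choice, 10 of 13 genes were tested, with a median of 0.01 and 2 genes at an unadjusted p below 0.05. Itgae, the CD103 integrin chain that Runx3 controls in mice, had 6481 and 6874 in Nrp1-positive and 3262 and 6682 in Nrp1-negative arrays. Its difference of 0.51 came from replicate 1 (0.99, against 0.04 in replicate 2), and Myb differed by 0.33 in the same way (0.64 and 0.02). The cytotoxic genes Gzmb and Prf1 differed by −0.29 and −0.28, and Cd4 by 0.05. Of the Runx partners and family, 8 of 10 genes were tested, with a median of 0.13 and 0 at an unadjusted p below 0.05. The corepressor gene Tle1 differed by 0.47, Sin3a by 0.25, and Cbfa2t2 and Tle3 by 0.17 each. Replicates 1 and 2 took opposite signs for Cbfa2t2 (−0.04 and 0.39) and Tle3 (0.35 and −0.01). Of the Bcl6 corepressors, 4 of 7 were tested, with 0 at an unadjusted p below 0.05 and differences of −0.25 for Bach2, 0.08 for Mta3, −0.05 for Bcor and −0.04 for Hdac3 (median −0.05).

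RORα also acts in the circadian clock, where it drives Arntl (Bmal1). Of 11 clock genes, 9 were tested, with a median of 0.09 and 2 at an unadjusted p below 0.05, Arntl and Cry1. Arntl had 855 and 1146 in Nrp1-positive and 628 and 898 in Nrp1-negative arrays, and its difference was 0.43 in replicate 1 and 0.35 in replicate 2 (adjusted p = 0.391 in limma). Cry1 was 0.34 higher in each replicate, Dbp differed by 0.25 and Per2 by −0.36.

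**Figure D5:**
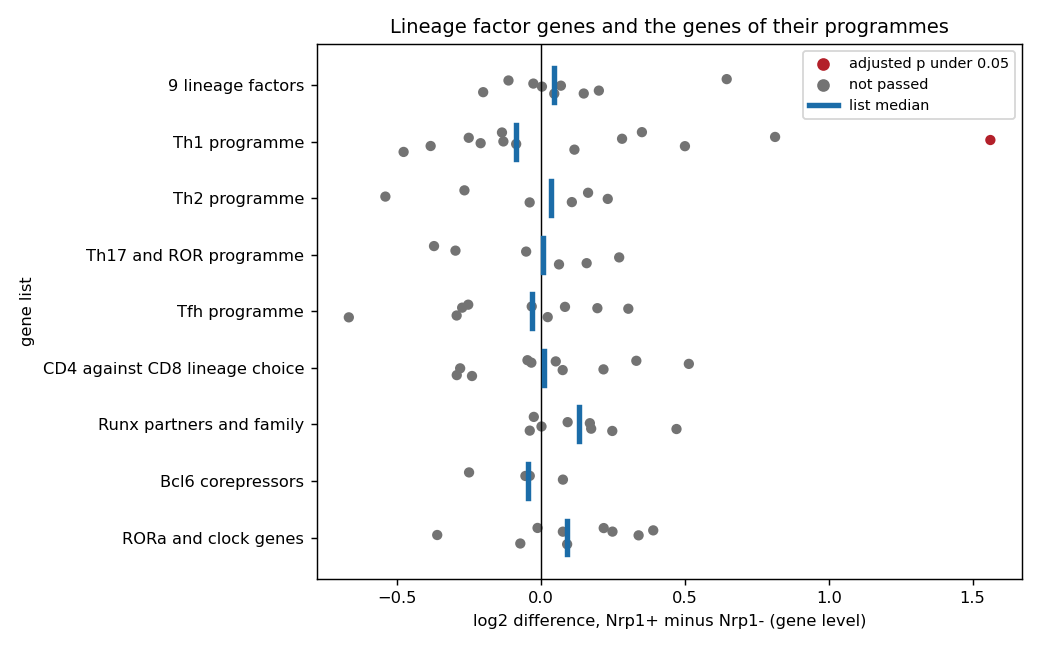
Log2 difference at gene level, Nrp1-positive minus Nrp1-negative, of each tested gene in the 9 lineage factors and 8 lists of their programmes and partners. Points are genes (spread vertically for legibility), red points passed an adjusted p of 0.05 in limma and blue bars are list medians. Il18r1 at 1.56 is the red point, and the list medians lie between −0.09 and 0.13.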

How the data were processed

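RNA extracted with Trizol and labelled with biotin had been hybridised to 1-colour Affymetrix mouse arrays, per the labels' protocols. The authors deposited 1 intensity per probe set, unlogged, from MAS5 as named in the submitters' processing notes, and no MAS5 version, setting or detection call was used here. Each array was scaled to a trimmed mean of 500 (share of 0.02 trimmed at each end), and log2(intensity + 18.3) was analysed, the pseudocount being 0.25 of the mean array median. Gene names came from the platform annotation, in which 34945 probe sets have 1 gene, 932 several and 9160 none, besides 64 controls, and 0 symbols changed through RefSeq. Probe sets whose mean level reached percentile 50 entered the tests (22519, or 10200 genes, each at its brightest probe set by mean).

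The fit was limma 3.58.1 (R 4.3.3), with the replicate number as a block, eBayes with a trend of variance on mean, two-sided p-values and Benjamini-Hochberg adjustment at 0.05. This leaves 1 residual degree of freedom per gene beside 7.84 from the prior, so standard errors rest mostly on genes of similar level. The pairing rests on the shared scaling target, and deviations from group means correlated at 0.730 between same-numbered arrays. An exact permutation test of 2 against 2 arrays that leaves the replicate number aside cannot go below 0.333, and one within replicate numbers has a higher floor. Alternatives covered the block, normalization, pseudocount, filter, trend, probe set rule, each array left out and the conflicting label.

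The members and lists were chosen with earlier results of these data known. All 9 genes are reported, and from each of the 8 lists the called genes and up to 4 others of largest difference. Ifng, Cxcr3 and Cd4 were added for their role. A further list held 8 regulatory T cell markers, of which 7 were tested. Of these, 2 were called higher in limma, where 0.284% of all genes were. They were Nrp1, the sorted marker, at 3.68 and Ikzf2 at 0.83 (adjusted p = 0.0329). Tnfrsf18 differed by 0.44, Il2ra by 0.27, Ctla4 by −0.11 and Cd3e by −0.10. Drawings used matplotlib 3.10.9.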

Additional observations from a re-analysis of the deposited data

How the results depend on the processing

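Without the replicate block, with the conflicting array counted as Nrp1-positive, and without the mean-variance trend, 0 genes and 0 probe sets were called, so each call depends on the block and on the trend. Against 46 genes called, quantile normalization called 169, the larger pseudocount 76 and the mean of probe sets 184. Against 46 probe sets called, quantile normalization called 140, the larger pseudocount 30, no filter 24 and the filter at percentile 70 called 26. The number of lineage factors called was 1, Rora, at gene level under quantile normalization (difference 0.65), the smaller (0.65) and larger pseudocount (0.63) and the mean of probe sets (0.68), and 1 probe set, 1424034_at of Rora, under quantile normalization. With the block kept, leaving out an array leaves the pair of the other replicate number and no residual degree of freedom, so no test, and Rora was 0.52 to 0.77. Leaving out each array without the block, an alternative added after seeing the data that mixes replicate number and group, called 0 to 1 genes and 0 to 3 probe sets and gave Rora differences of 0.35 to 0.94. The lone array of a group is then assumed to vary like the others. Nrp1, Ikzf2 and Il18r1 lost their calls without the block and without the trend.

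Directions of lineage factors turned under several alternatives. With the block kept, leaving out an array of replicate 1 turned Tbx21 to −0.19 and Runx1 to −0.03, and leaving out one of replicate 2 turned Bcl6 to 0.01 and Runx3 to −0.06, values with no test. Further signs turned when the conflicting array was counted as Nrp1-positive, in a fit that sets 3 arrays against Nrp1-negative replicate 2 and so mixes replicate number and group. There Tbx21 was −0.21, Runx3 −0.44, Cbfb −0.10, Zbtb7b 0.27 and Il18r1 −0.063 at gene level. At probe set level, Rora was −0.30 at 1455165_at, −0.13 at 1436325_at, −0.16 at 1436326_at and −0.35 at 1420583_a_at, Bcl6 was −0.35 at 1450381_a_at and Runx1 −0.18 at 1422865_at. Bcl6 also turned to 0.052 with the mean of its probe sets, and Runx3 to −0.0017 with quantile normalization. The cause was not tested.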

Other observations

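Il12rb2, Ascl2, Cd8a and Rorb lay below the filter, where the arrays give no detection call, and their groups did not overlap. Genes below the filter numbered 2 each in the type 1, interleukin-17, follicular, CD4 and CD8, and clock lists. The type 2 list had 6, and the Runx, Bcl6 and regulatory T cell lists 1 each. Apart from the genes named, the groups of all of them overlapped. Among all genes tested, 21.1% had groups that did not overlap in either direction, and no share was taken below the filter. Il12rb2, the inducible chain of the interleukin-12 receptor and a target of T-bet, had intensities of 17.7 and 37.3 in Nrp1-positive and 1.74 and 1.27 in Nrp1-negative arrays, all under the 67.8 at which the filter lies. Ascl2, a factor of follicular helper cells, had 10.9 and 8.62 in Nrp1-positive and 36.4 and 47.1 in Nrp1-negative arrays. Rorb had 56.6 and 79.2 in Nrp1-positive and 3.07 and 29.9 in Nrp1-negative arrays. Cd8a had 84.4 and 72.3 in Nrp1-positive and 40.2 and 19.4 in Nrp1-negative arrays. Cd8b1, which passed the filter, had 266 and 490 in Nrp1-positive and 231 and 411 in Nrp1-negative arrays, and its groups overlapped. These genes were picked after their values were seen.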
